A study of Mus musculus with 12 samples.

Results

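The BCL2 family decides whether the outer membrane of the mitochondrion stays closed or opens to start apoptosis. Its 10 members described here were the genes of the count tables that carry the symbols Bcl2, Bcl2l1, Mcl1, Bcl2a1b, Bcl2a1d, Bax, Bak1, Bcl2l11, Bid and Pmaip1. Each of the 10 was found once, by symbol, among the 16699 genes present in both tables. RNA-seq was performed on J774A.1 cells, a mouse macrophage line. WT lines carried the Cas9 and GFP vector without a guide RNA, and ACAT1 KO lines carried the same vector with a guide against the fourth exon of Acat1, the mitochondrial thiolase that makes and splits acetoacetyl-CoA. Each genotype was represented by 3 clonal lines grown out after a sort for GFP. Libraries numbered 1 to 3 were sequenced for each genotype unstimulated and 2 hours after 100 ng/ml LPS, so that 4 groups of 3 libraries were compared. All groups therefore share the vector, the sort and the parental line, and a difference between genotypes was measured between 3 lines and 3 lines. Nothing in the labels states that libraries came from further separate cultures, so p-values measure the spread between these libraries.

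In cells, the anti-apoptotic members Bcl2, Bcl2l1 (encoding BCL-XL), Mcl1 and the Bcl2a1 genes (encoding A1) hold the pro-apoptotic proteins in check. Bax and Bak1 encode the proteins that form pores in the outer mitochondrial membrane, through which cytochrome c leaves. The BH3-only genes Bcl2l11 (encoding BIM), Bid and Pmaip1 (encoding NOXA) encode the sensors that bind the anti-apoptotic proteins or activate BAX and BAK. In macrophages, A1 is known as a target of NF-κB, and MCL1 is known for its short life. RNA levels, which are what was measured here, do not give protein levels.

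Bcl2a1b and Bcl2a1d are copies of 1 gene on chromosome 9, with the further copy Bcl2a1a between them. Their likeness bears on how far their counts can be told apart. Over the 519 bases of their coding sequences, 6 bases differed (98.8% identity, GENCODE models on GRCm38). The first 150 coding bases are given 5′ to 3′, with the 3 bases that differ in capitals after the start codon. Counted from the A of the ATG, and with the Bcl2a1b base first, these are G4T, T48C and A94C.
Bcl2a1b (chr9:89199360-89199509, plus strand, coding exon): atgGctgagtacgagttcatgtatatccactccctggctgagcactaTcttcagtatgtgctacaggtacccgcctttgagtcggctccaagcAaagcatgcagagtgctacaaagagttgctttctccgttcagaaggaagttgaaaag
Bcl2a1d (chr9:88731570-88731719, minus strand, coding exon): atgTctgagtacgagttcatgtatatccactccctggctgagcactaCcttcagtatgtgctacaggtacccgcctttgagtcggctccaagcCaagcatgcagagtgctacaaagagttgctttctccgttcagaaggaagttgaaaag
Windows of 100 bases were compared only among the transcripts of the members and the Bcl2a1 copies. Of all such windows, 54.7% for Bcl2a1d and 31.1% for Bcl2a1b also occurred in another gene searched, compared with 0% for the other 8 members. How reads in such windows were counted is not given in the sources used here. The split of counts between Bcl2a1b and Bcl2a1d is therefore uncertain, as are their levels and their places among the members. The sum of all Bcl2a1 copies is given beside them. It does not depend on the split, but reads dropped or counted more than once would change it too.

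A search of RefSeq promoter windows (250 bases before to 50 after the start site, GRCm38.p6, both strands) matched 9 of the 10 members. TGANTCA, a loose form of the AP-1 motif with any base allowed in its centre, occurred in the windows of Bcl2a1b and Bcl2a1d. It was found in 7.81% of all 32851 windows. In both members the match was TGAATCA, with A as the central base. The 67 bases around it are shown for each, with the motif in capitals. Their first 47 bases are equal, the motif included, and the rest does not line up base by base.
Bcl2a1b (chr9:89199079-89199145, plus strand): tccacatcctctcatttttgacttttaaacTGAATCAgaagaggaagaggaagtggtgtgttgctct
Bcl2a1d (chr9:88731928-88731994, minus strand): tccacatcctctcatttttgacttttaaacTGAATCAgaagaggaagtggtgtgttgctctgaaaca
The NF-κB consensus was found only in the window of Bcl2l1 among the members matched, and in 8.46% of all windows. A p53 motif of 10 bases, which is a part of the full p53 element, was found in the window of Bax, and in 8.36% of all windows. No match was found in the members' windows for the CRE motif TGACGTCA (1.79% of all windows), the ISRE core (3.44%), the GAS motif TTCNNNGAA (8.30%) or the C/EBP motif TTGCGCAA (0.183%), which says only that these letters were not in these windows.

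Libraries held 56948593 to 167280149 counts. Acat1 was 80.8 to 108 CPM (counts per 1000000, with libraries scaled by edgeR's TMM method) in unstimulated WT and 25.5 to 28.9 CPM in unstimulated KO, and 65.0 to 95.4 and 18.5 to 19.9 CPM after LPS, so that it was reduced in all KO libraries and not lost. All 10 macrophage markers were present, with a summed level of 8804 to 11521 CPM across groups, while 1 of 5 T cell markers, 1 of 4 B cell markers and 1 of 6 fibroblast and epithelial markers were in both tables. The latter lists summed to at most 0.198, 0.938 and 13.0 CPM. Some of these genes also differed between genotypes, by the edgeR test and threshold described below. That test called 1.91% of all genes without stimulation and 15.1% after LPS. Without stimulation 2 of the 10 macrophage markers were lower in the KO (Fcgr1 -0.69 and Adgre1 -0.78, log2). After LPS 4 were higher (Cd14 0.40, Itgam 0.48, Spi1 0.26 and Mrc1 1.18) and Fcgr1 was lower (-1.07). The fibroblast marker Pdgfra (0.99) and 3 of 5 LPS response genes, Tnf (0.59), Il1b (1.46) and Il6 (1.40), were also higher in the KO after LPS. Their part in the results on the members was not tested. In unstimulated WT replicates 1 and 2 and KO replicate 2, antisense genes took 0.134 to 0.188% of counts, compared with 0.0621 to 0.0736% in the other 9 libraries. Results that rest on these 3 libraries are given without them where the call changed. Unstimulated WT then keeps only replicate 3, so only effect sizes are given. In bulk RNA, fewer cells that express a gene and less RNA per cell cannot be told apart.

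**Figure D1:**
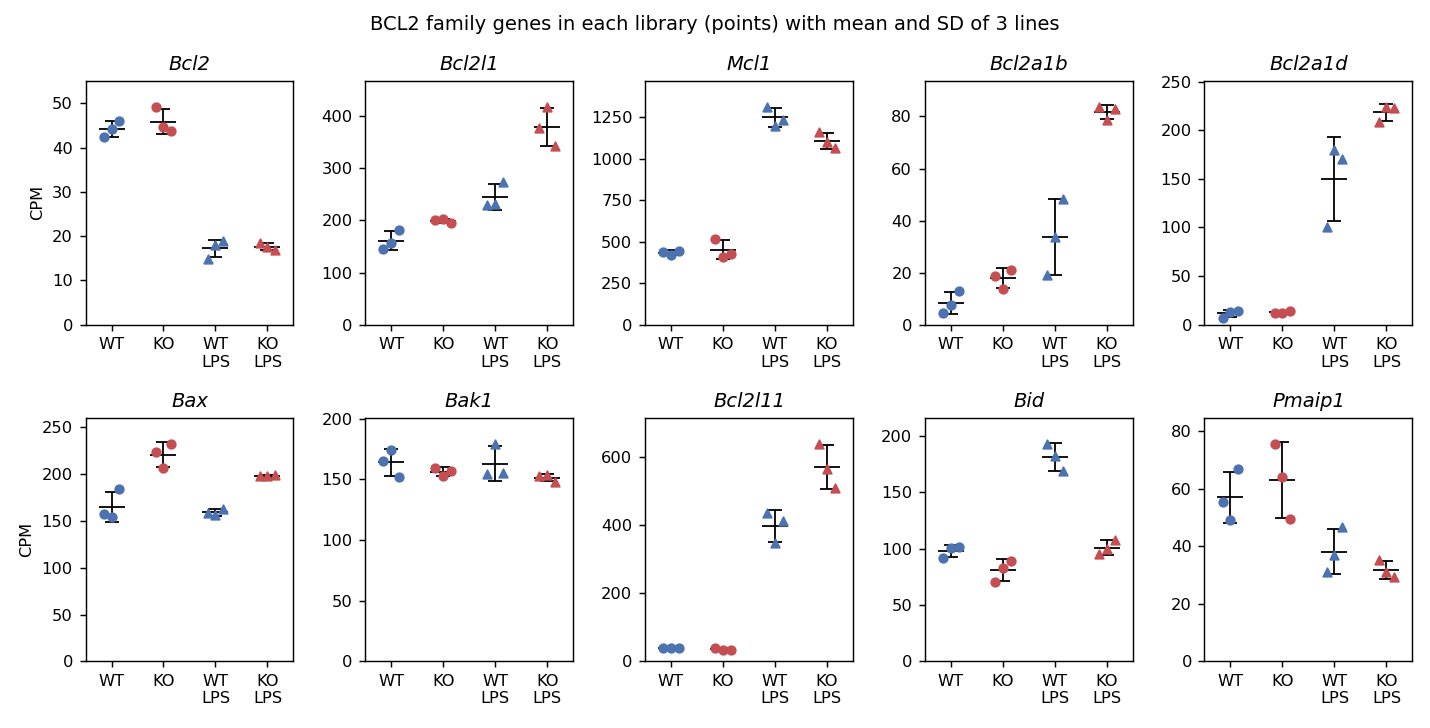
CPM of the 10 members in each of the 12 libraries (points), with the mean and SD of the 3 libraries of a group (black). Blue marks WT, red KO, circles unstimulated and triangles LPS libraries. Bcl2l11 lies between 34.1 and 39.8 CPM in all unstimulated libraries and between 346 and 637 CPM in all LPS libraries.

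LPS changed most of the family in both genotypes. In WT lines, 6 members rose, 2 fell and 2 did not pass the test (adjusted p under 0.05, edgeR quasi-likelihood test with Benjamini-Hochberg adjustment over all genes, as for every adjusted p below). This was 8 of 10 members, beside 55.1% of all 16069 genes tested. In KO lines 6 rose and 3 fell, or 9 of 10, beside 62.9% of 16146 genes. The median log2 fold change of the members was 0.72 in WT and 0.62 in KO, compared with -0.04 and -0.03 over all genes. Each state has its own table, and nothing in the sources used here says how the libraries of a state were batched, so LPS and such a batch cannot be told apart. Of all called genes, 4391 of 8860 were higher after LPS in WT and 4862 of 10154 in KO. With upper-quartile scaling, which moved the median of all genes to -0.23 and -0.17, these became 3358 of 9658 and 3990 of 10569.

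Among the anti-apoptotic members, the Bcl2a1 copies and Mcl1 rose most. Bcl2a1d was 7.39, 13.0 and 14.5 CPM in WT replicates 1 to 3 and 100.3, 179 and 171 CPM after LPS. In the KO it was 12.2, 11.6 and 14.4 CPM, and 208, 224 and 223 CPM after LPS. No unstimulated library reached the lowest LPS library, and WT replicate 1 was the lowest of its group in both states. The log2 fold change was 3.66 (SE 0.31, adjusted p = 4.02e-05) in WT and 4.10 (SE 0.09, adjusted p = 1.5e-07) in KO.

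Bcl2a1b was 4.53, 7.60 and 13.1 CPM in WT and 19.0, 33.7 and 48.3 CPM after LPS. The KO libraries held 18.9, 13.6 and 21.0 CPM unstimulated and 83.6, 78.6 and 82.7 CPM after LPS. Its WT lines kept their order in both states and spread far more than the KO lines after LPS. The increase was 1.97 in WT (log2, SE 0.43, adjusted p = 0.00547) and 2.19 in KO (SE 0.14, adjusted p = 9.44e-06). Without the 3 libraries with more antisense counts, which leaves only replicate 3 of unstimulated WT, the WT increase was 1.34. Summed over all copies, Bcl2a1 counts rose by 3.16 in WT (log2, SE 0.34, adjusted p = 0.000131) and 3.30 in KO (SE 0.12, adjusted p = 8.38e-07).

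Mcl1, whose product guards against BAK activation, was the member with the highest CPM in all libraries. It was 442, 418 and 442 CPM in WT and 517, 408 and 429 CPM in KO without stimulation. After LPS, 1312, 1200.5 and 1238 CPM were measured in WT and 1163, 1099.7 and 1068 CPM in KO. The states did not overlap, and the log2 increase was 1.50 (SE 0.07, adjusted p = 2.01e-06) in WT and 1.29 (SE 0.09, adjusted p = 1.45e-05) in KO.

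Bcl2l1 rose less. WT libraries held 146, 156 and 181 CPM and, after LPS, 229, 231 and 274 CPM. KO libraries held 200.1, 203 and 196 CPM and, after LPS, 376, 417 and 343 CPM. The groups were ordered WT, KO, WT after LPS and KO after LPS with no overlap between neighbours in this order. The log2 increase was 0.58 (SE 0.11, adjusted p = 0.00271) in WT and 0.92 (SE 0.08, adjusted p = 3.17e-05) in KO. The WT value was 0.41 without the 3 libraries with more antisense counts, which leaves only replicate 3 of unstimulated WT.

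Bcl2 itself fell. It was 42.3, 44.2 and 46.1 CPM in WT and 49.1, 44.6 and 43.8 CPM in KO, and after LPS 14.9, 17.9 and 18.8 CPM in WT and 18.5, 17.5 and 16.8 CPM in KO. The genotypes overlapped in each state. The log2 fold change was -1.39 in both (SE 0.10, adjusted p = 1.83e-05 in WT; SE 0.07, adjusted p = 1.98e-06 in KO). Of its exons, 558 bases overlap the gene D630008O14Rik on the other strand, and whether the counting used the strand is not given in the sources used here.

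The pore-forming genes moved little with LPS. Bax was 157, 154 and 184 CPM in WT and 158, 156 and 163 CPM after LPS, with a log2 fold change of -0.08 (SE 0.08, adjusted p = 0.473). In the KO, Bax was 223, 206 and 232 CPM and fell to 198, 198 and 199 CPM, by 0.16 on the log2 scale (SE 0.06, adjusted p = 0.0400). That call was lost when any 1 of 5 of the 6 KO libraries was left out, where the adjusted p reached 0.138, and with DESeq2 (adjusted p = 0.0504). Bak1 stayed between 148 and 179 CPM in all 12 libraries. Its log2 fold change was -0.04 in WT (95% interval -0.24 to 0.17, adjusted p = 0.757) and -0.05 in KO (95% interval -0.16 to 0.06, adjusted p = 0.352). The Bak1 exons overlap those of Ggnbp1 on the other strand over 614 bases.

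The BH3-only genes responded in different directions. Bcl2l11 was 39.3, 38.1 and 39.8 CPM in WT and 435, 346 and 410.1 CPM after LPS. In the KO, 38.2, 34.1 and 34.7 CPM were measured, and 637, 564 and 508 CPM after LPS. Every LPS library was above every unstimulated library, and every KO library after LPS was above every WT library after LPS. The log2 increase was 3.32 (SE 0.10, adjusted p = 3.37e-07) in WT, and 3.99 (SE 0.10, adjusted p = 1.94e-07) in KO.

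Bid, which caspase-8 cleaves to carry the death receptor signal to mitochondria, rose from 91.9, 101 and 101 CPM to 193, 183 and 169 CPM in WT. In the KO it was 70.4, 82.6 and 89.6 CPM unstimulated and 95.0, 100.1 and 108 CPM after LPS. The KO libraries after LPS lay far below the WT libraries after LPS and near the unstimulated WT libraries. The log2 increase was 0.86 (SE 0.08, adjusted p = 5.37e-05) in WT and 0.31 (SE 0.10, adjusted p = 0.0230) in KO. The KO call was lost with upper-quartile scaling (log2 fold change 0.17, adjusted p = 0.158) and without KO replicate 2 or 3 after LPS (adjusted p = 0.0544 and 0.0782). Bid exons overlap Bcl2l13 on the other strand over 628 bases. Bcl2l13 was 67.4 to 92.9 CPM across the 12 libraries.

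Pmaip1, which encodes the partner that targets MCL1 and A1, fell. WT libraries held 55.3, 49.2 and 66.7 CPM and, after LPS, 31.0, 36.9 and 46.6 CPM. KO libraries held 75.6, 64.2 and 49.5 CPM and, after LPS, 35.4, 31.0 and 29.3 CPM. The genotypes overlapped in both states, and the lines varied more than for the other BH3-only genes. The log2 fold change was -0.61 in WT (SE 0.17, adjusted p = 0.0150) and -0.99 in KO (SE 0.15, adjusted p = 0.000767). Without WT replicate 2 after LPS, the WT value was -0.55 (adjusted p = 0.0573).

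**Figure D2:**
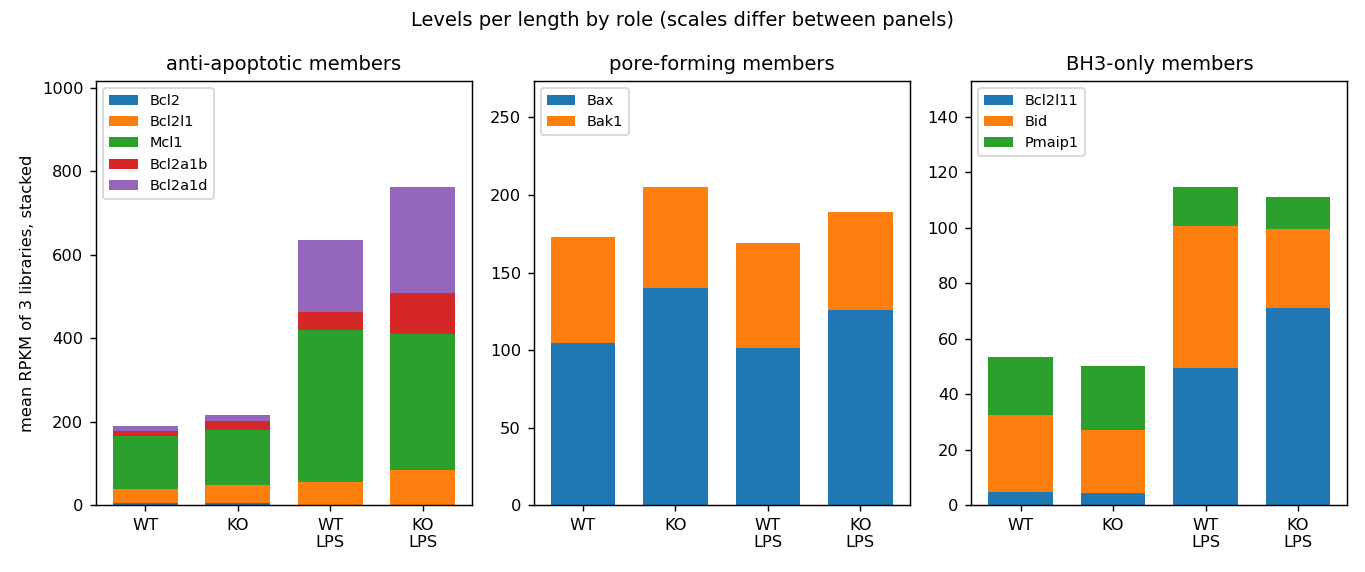
Mean RPKM (CPM per kilobase of merged exons) of the members in the 4 groups, stacked by role, with a scale of its own for each panel. The anti-apoptotic sum is 191 RPKM in WT and 636 RPKM in WT after LPS, while the pore-forming sum is 173 and 169 RPKM.

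Members can be compared with each other only per length, as RPKM. In unstimulated WT the order of the mean levels was Mcl1 (127 ± 4.11 RPKM, SD, n = 3, as below), Bax (105 ± 10.4), Bak1 (68.1 ± 4.71), Bcl2l1 (35.1 ± 3.99), Bid (27.6 ± 1.47), Pmaip1 (20.9 ± 3.26), Bcl2a1d (13.5 ± 4.36), Bcl2a1b (10.3 ± 5.30), Bcl2l11 (4.86 ± 0.108) and Bcl2 (4.83 ± 0.205). In that order, Bcl2a1d and Bcl2a1b overlapped, as did Bcl2l11 and Bcl2. In the unstimulated KO, Bax (140.0 ± 8.44 RPKM) and Mcl1 (132 ± 16.9 RPKM) overlapped at the top. Pmaip1, Bid, Bcl2a1b and Bcl2a1d followed Bak1 and Bcl2l1. Pmaip1, Bid and Bcl2a1b each overlapped the next in order, while Bcl2a1d did not overlap Bcl2, which came after it.

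After LPS, Mcl1 was first and Bcl2a1d second in both genotypes, at 366 ± 16.7 and 174 ± 50.3 RPKM in WT and 325 ± 14.1 and 253 ± 10.1 RPKM in KO. Bcl2a1b was in eighth place in WT (41.2 ± 17.9 RPKM), where it overlapped Bcl2l11. In the KO it was in the fourth (99.9 ± 3.28 RPKM), where it overlapped neither neighbour. Bcl2l11 reached 49.5 ± 5.75 RPKM in WT and 71.0 ± 8.05 RPKM in KO. Bcl2 was last in both, at 1.88 ± 0.221 and 1.92 ± 0.0891 RPKM.

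The make-up of each class changed with these levels. The 5 anti-apoptotic members summed to 191 ± 14.3 RPKM in WT and 217 ± 19.5 RPKM in KO, and after LPS to 636 ± 54.7 and 762 ± 11.7 RPKM. Bcl2a1b and Bcl2a1d together made up 12.3 ± 4.08% of that sum in WT and 16.8 ± 2.49% in KO, and after LPS 33.4 ± 7.91% and 46.3 ± 1.65%. The share of Mcl1 was 66.8 ± 4.72% in WT and 60.7 ± 2.75% in KO, and after LPS 57.9 ± 7.67% and 42.6 ± 1.47%. The pore-forming pair summed to 173 ± 6.07 RPKM in WT, 205 ± 9.56 RPKM in KO, 169 ± 4.59 RPKM in WT after LPS and 189 ± 0.743 RPKM in KO after LPS. These sums and shares are descriptions and were not tested. Those that include Bcl2a1b and Bcl2a1d carry the uncertainty of their counts.

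The 3 BH3-only members summed to similar levels in both genotypes, at 53.3 ± 3.97 RPKM in WT and 50.3 ± 2.38 RPKM in KO, and 115 ± 6.05 and 111 ± 7.41 RPKM after LPS. Their parts differed. After LPS, Bcl2l11 took 43.1 ± 2.83% of the sum in WT and 63.8 ± 3.02% in KO, while Bid took 44.7 ± 3.32% in WT and 25.7 ± 3.31% in KO. Bbc3, another BH3-only gene of the family, is not among the members, so these sums and shares leave it out. It was at 42.9 ± 4.76 RPKM in WT and 51.3 ± 1.81 RPKM in KO without stimulation, above each of the 3 members. After LPS it fell to 26.2 ± 1.89 and 26.1 ± 0.643 RPKM, so the sums and shares hold only for the members chosen.

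The comparison of genotypes addressed which members differed with the ACAT1 KO in each state. Without stimulation, none of the 10 members passed the test between KO and WT, beside 1.91% of all 16440 genes. At an unadjusted p under 0.05, the measure used in the study's methods, there were 4 (Bax, Bid, Bcl2l1 and Bcl2a1b), beside 19.7% of all genes. The libraries of the genotypes did not overlap for the same 4 members, beside 25.5% of 16535 genes. DESeq2 called 2, Bax and Bcl2l1, beside 12.4% of the genes it tested, and limma-voom called none. After LPS, 5 of 10 members passed the test, beside 15.1% of 16483 genes. Bcl2a1b, Bcl2l1, Bcl2l11 and Bax were higher in the KO and Bid was lower. The count was 3 without KO replicate 1 or KO replicate 2. The libraries did not overlap for 8 members, beside 36.9% of 16535 genes. The median log2 fold change of the members was 0.10 without stimulation and 0.19 after LPS, compared with 0.0035 and -0.0041 for all genes.

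**Figure D3:**
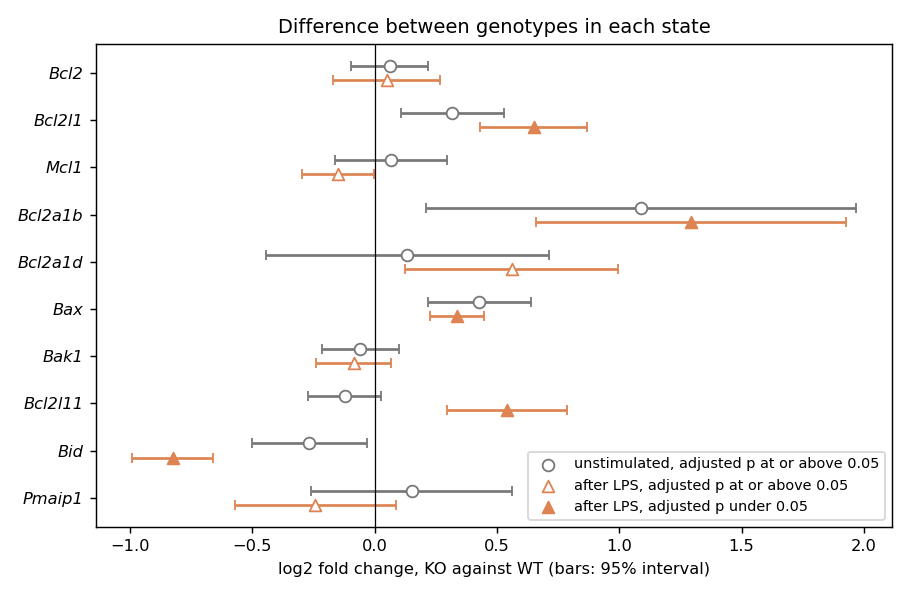
Log2 fold change of each member in KO against WT (x axis) in unstimulated (grey circles) and LPS (orange triangles) libraries, with 95% intervals; filled symbols have an adjusted p under 0.05. Bid lies at -0.83 after LPS, and Bcl2l11 at -0.12 without stimulation and 0.54 after LPS.

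Bcl2a1b showed the largest genotype difference among the members in size. From the values above, no WT library reached a KO library in either state. The log2 difference was 1.09 without stimulation (SE 0.37, 95% interval 0.21 to 1.97, adjusted p = 0.178) and 1.29 after LPS (SE 0.28, 95% interval 0.66 to 1.93, adjusted p = 0.0213). The call after LPS was lost without WT replicate 2 or without any 1 of the KO replicates, where the adjusted p was at most 0.0673. Without WT replicate 3, the unstimulated value was 1.57 and passed (adjusted p = 0.0496). Bcl2a1d had the same direction after LPS, with a log2 difference of 0.56 (SE 0.19, adjusted p = 0.0841), and it passed with DESeq2 (adjusted p = 0.0112) and without WT replicate 1 (0.34, adjusted p = 0.0129). Summed over all copies, Bcl2a1 counts were higher in the KO after LPS by 0.72 (log2, SE 0.20, adjusted p = 0.0448) and did not pass without stimulation (0.60, SE 0.29, adjusted p = 0.308). Bcl2a1b made up 40.8 ± 5.74% of the counts of both genes in WT and 58.1 ± 3.51% in KO, and 17.9 ± 3.57% and 27.2 ± 1.33% after LPS.

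For Bcl2l1 the difference was 0.32 on the log2 scale without stimulation (SE 0.09, adjusted p = 0.121, or 0.0378 without WT replicate 3) and 0.65 after LPS (SE 0.09, adjusted p = 0.00642). The call after LPS held when any library was left out, with values of 0.58 to 0.75. Bcl2l1 lies on chromosome 2 (chr2:152780668-152831728, minus strand, GRCm38), and genes of that chromosome from 90 Mb onward were displaced together. Over 709 such genes the median log2 difference was 0.29 without stimulation, and over 712 genes it was 0.28 after LPS. This region was set from an earlier analysis of these data, so its medians are descriptions. The value of Bcl2l1 exceeded these medians by 0.03 and 0.37. Its neighbours within 1 Mb had medians of 0.29 (33 genes) and 0.17 (34 genes).

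Bcl2l11 lies on the same chromosome (chr2:128126038-128162547, plus strand). Its log2 difference was -0.12 without stimulation (SE 0.06, adjusted p = 0.341) and 0.54 after LPS (SE 0.11, adjusted p = 0.0164). Its 25 neighbours within 1 Mb had medians of 0.31 and 0.43, so that Bcl2l11 was below its neighbours without stimulation and near them after LPS. The call after LPS was lost without KO replicate 1 (0.46, adjusted p = 0.0548) or KO replicate 2 (0.55, adjusted p = 0.0559). What part the displacement of chromosome 2 has in the values of Bcl2l1 and Bcl2l11 was not tested.

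Bid was lower in the KO by 0.83 on the log2 scale after LPS (log2 fold change -0.83, SE 0.07, adjusted p = 0.00145), the smallest p among the members. It was called with each library left out, at -0.87 to -0.78. Without stimulation the value was -0.27 (SE 0.10, adjusted p = 0.205). On chromosome 6 (chr6:120891930-120916853, minus strand), the 17 neighbours of Bid within 1 Mb had a median of -0.21 without stimulation and -0.22 after LPS. By its lower coordinate, Gm44260 begins within the span of Bid, and it was at -0.71 after LPS (adjusted p = 0.0423). Whether Gm44260 and Bid share reads was not tested. Mical3, which begins beyond that span, was at -0.72 (adjusted p = 0.0250). Both genes were chosen after their values were seen. Bcl2l13, which overlaps Bid on the other side, was at -0.15. The part of the neighbourhood in the value of Bid was not tested.

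**Figure D4:**
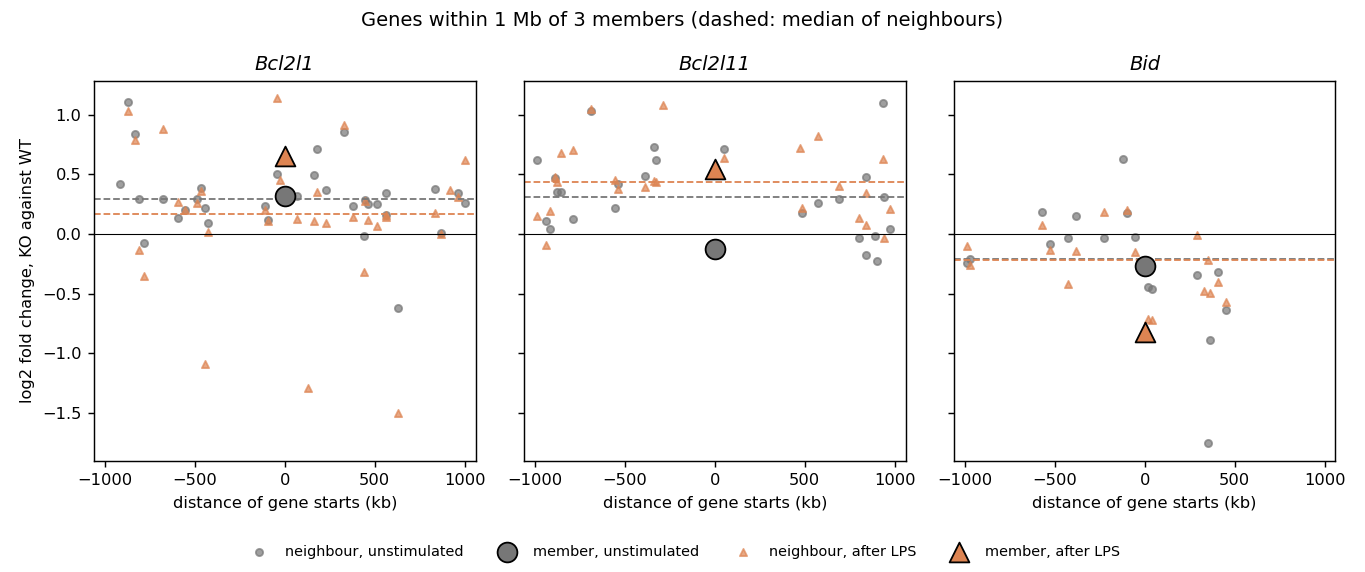
Log2 fold change in KO against WT (y axis) of genes that start within 1 Mb of Bcl2l1, Bcl2l11 and Bid, by the distance of their start in kb (x axis), in unstimulated (grey circles) and LPS (orange triangles) libraries. Large symbols are the members and dashed lines the medians of the neighbours, which are above 0 around Bcl2l1 and Bcl2l11 and at -0.21 and -0.22 around Bid.

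Bax was higher in the KO by 0.34 after LPS (log2, SE 0.05, adjusted p = 0.00605), and the call held when any library was left out (0.33 to 0.36). Without stimulation it was 0.43 (SE 0.09, adjusted p = 0.0686). That value passed the threshold with DESeq2 (adjusted p = 0.000253), with 10 counts required in every library (0.0496), with all 12 libraries in 1 fit (0.00632), with a term for the 3 libraries with more antisense counts (0.0258) and without WT replicate 3 (0.0321). Bak1, the other pore-forming gene, was at -0.06 (95% interval -0.22 to 0.10, adjusted p = 0.700) and -0.08 (95% interval -0.24 to 0.07, adjusted p = 0.429).

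The remaining members did not pass between genotypes. Mcl1 was at 0.07 without stimulation (95% interval -0.16 to 0.29, adjusted p = 0.771) and -0.15 after LPS (95% interval -0.30 to -0.0032, adjusted p = 0.152). Pmaip1 was at 0.15 (adjusted p = 0.695) and -0.24 (adjusted p = 0.290). Bcl2 was at 0.06 (adjusted p = 0.679) and 0.05 (adjusted p = 0.764).

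**Figure D5:**
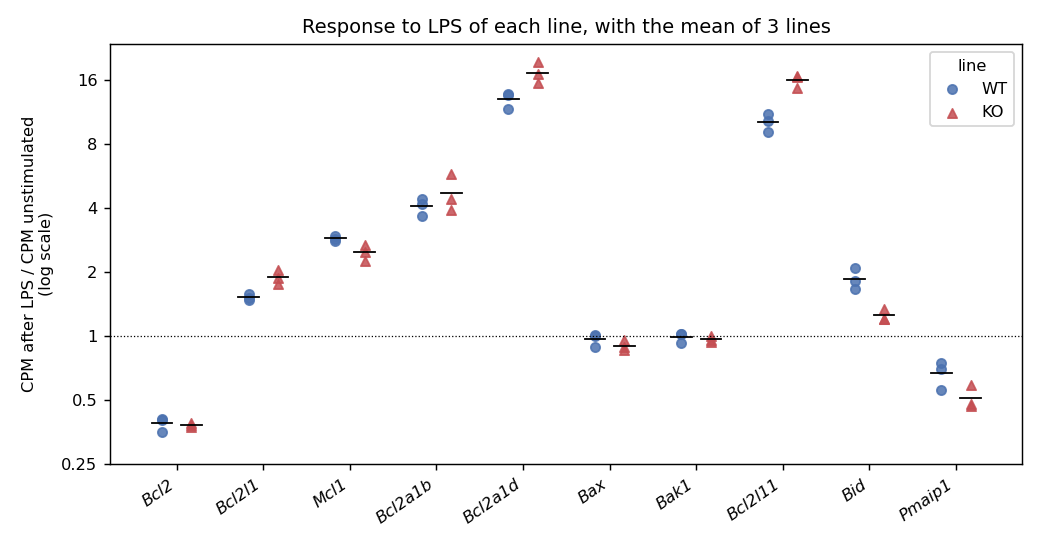
Ratio of CPM after LPS to CPM without stimulation (y axis, log scale) for each line of WT (blue circles) and KO (red triangles), with the mean of 3 lines (black). The KO lines lie above the WT lines for Bcl2l1, Bcl2a1d and Bcl2l11 and below them for Mcl1 and Bid.

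Whether the response to LPS differed between genotypes was tested with an interaction term over all 12 libraries. None of the members passed, beside 0.187% of all 16535 genes. At an unadjusted p under 0.05 there were 3 members, Bcl2l11, Bid and Bcl2l1, beside 8.92% of all genes. Libraries of a genotype with the same number deviated together in both states, though the labels do not pair them. For KO numbers 2 and 3 this was weak (r = 0.139 and 0.175 of deviations from group means). Unstimulated KO 2 and KO 3 after LPS were at 0.0976. With genotype and number as a block, which ties no WT line to a KO line, 2 members passed, beside 1.74% of all genes. With this block the increase of Bcl2l11 was larger in the KO by 0.65 on the log2 scale (SE 0.10, adjusted p = 0.0174), compared with 0.65 (SE 0.14, adjusted p = 0.0948) without it. The increase of Bid was smaller in the KO, with a blocked value of -0.56 (SE 0.10, adjusted p = 0.0326), compared with -0.57 (SE 0.13, adjusted p = 0.110) without the block. DESeq2 without a block called both (adjusted p = 0.000603 and 0.00510), beside 2.78% of the genes it tested, and limma-voom called none.

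With libraries of the same number taken as the same line, Bcl2l11 was multiplied by 9.08 to 11.1 in WT and by 14.7 to 16.7 in KO. Bid was multiplied by 1.67 to 2.10 in WT and by 1.20 to 1.35 in KO. The ranges of the genotypes were also apart for Bcl2l1 (1.48 to 1.57 in WT, 1.75 to 2.06 in KO), Bcl2a1d (11.7 to 13.8 and 15.5 to 19.4) and Mcl1 (2.80 to 2.97 and 2.25 to 2.69). These were 5 of 10 members, beside 20.4% of 16509 genes. For Bcl2l1 the interaction was 0.32 (SE 0.14, unadjusted p = 0.0407, adjusted p = 0.521), for Bcl2a1d 0.42 (adjusted p = 0.833) and for Mcl1 -0.23 (adjusted p = 0.636). Genes of chromosome 2 from 90 Mb had a median interaction of -0.04, the 25 neighbours of Bcl2l11 one of 0.02 and the 17 neighbours of Bid one of -0.06. The values of Bcl2a1b (0.20), Bax (-0.10), Bak1 (-0.04), Pmaip1 (-0.41) and Bcl2 (-0.02) did not pass.

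Of 16 other genes of the family, 11 were in both tables. In WT, 1 of the 11 rose with LPS and 6 fell, and in KO likewise 1 rose and 6 fell, which is near the 55.1% and 62.9% of all genes that were called. Their median log2 fold changes were -0.43 and -0.57. Bcl2a1a, a further copy of A1, rose by 3.14 in WT (log2, SE 0.26) and by 3.40 in KO (SE 0.26). Of its 100-base windows, 43.5% were shared with other genes among the members and the Bcl2a1 copies. Bbc3, which encodes the BH3-only protein PUMA, was at -0.74 in WT (SE 0.10) and -0.98 in KO (SE 0.05). The mitophagy receptor genes Bnip3 and Bnip3l fell in both genotypes (-0.83 and -0.43 in WT, -1.16 and -0.57 in KO), as did Bcl2l12 (-0.75 and -0.85) and the BH3-only gene Bad (-0.32 and -0.51). Between genotypes, none passed without stimulation with edgeR, while 5 had an unadjusted p under 0.05 (19.7% of all genes). DESeq2 called 2 (12.4% of the genes it tested) and limma-voom 1. After LPS 1 of 11 passed with edgeR (15.1% of all genes), the BH3-only gene Bik, which was lower in the KO (-1.26, SE 0.24, adjusted p = 0.0147) at a mean of 1.22 CPM in KO and 2.96 CPM in WT. In that comparison DESeq2 called 4 of the 11 and limma-voom 2.

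Downstream of the mitochondrion, all 13 listed apoptosis genes were tested. In WT, 3 rose with LPS and 6 fell, and in KO 1 rose and 8 fell, near the shares of all genes called (55.1% and 62.9%). Apaf1, the scaffold of the apoptosome, rose by 1.15 (log2, SE 0.06) in WT and by 1.37 (SE 0.05) in KO, whereas Casp9, the caspase it activates, was at -1.12 (SE 0.10) and -1.39 (SE 0.07). Aifm1 and Casp6 fell in WT (-0.32 and -0.58) and in KO (-0.33 and -0.67). Between genotypes none passed without stimulation with edgeR. There were 2 at an unadjusted p under 0.05 (19.7% of all genes), 1 with DESeq2 (12.4% of the genes it tested) and 0 with limma-voom. After LPS 1 of the 13 passed, beside 15.1% of all genes. This was Casp9 (-0.33, SE 0.09, adjusted p = 0.0452). In this comparison DESeq2 called 2 of the 13 and limma-voom none.

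The 22 listed regulators include transcription factors of members, kinases and ubiquitin ligases. With LPS, 11 rose and 5 fell in WT, and 11 rose and 7 fell in KO, beside 55.1% and 62.9% of all genes called. The NF-κB subunit genes Nfkb1 and Rela rose by 2.22 (SE 0.07) and 1.60 (SE 0.08) in WT and by 2.32 (SE 0.05) and 1.57 (SE 0.06) in KO. Rel, a further subunit, and the ubiquitin ligase March5 rose by 2.35 and 1.29 in WT and by 2.37 and 1.42 in KO. Foxo3, a transcription factor known to drive Bcl2l11, was at -0.91 (SE 0.08) in WT and -1.31 (SE 0.06) in KO. Mdm2, the ligase of p53, rose by 2.48 (SE 0.19) in WT and by 1.83 (SE 0.09) in KO. Between genotypes none of the 22 passed without stimulation with edgeR, where 6 had an unadjusted p under 0.05 (19.7% of all genes). DESeq2 called 2 (12.4% of the genes it tested) and limma-voom 0. After LPS 9 passed and all 9 were lower in the KO, with a list median of -0.23. Of all genes 15.1% passed, and 977 of these 2481 were higher in the KO. DESeq2 called 11 of the 22 regulators and limma-voom 7. The 9 regulators lower in the KO included Jun (-0.68, SE 0.08, adjusted p = 0.00310), a subunit of AP-1, and the kinase Akt1 (-0.26, SE 0.05, adjusted p = 0.0204). Also among these 9 were Fbxw7 (-0.29, SE 0.06, adjusted p = 0.0225), a ligase adaptor that acts on MCL1, and the stress factor Atf4 (-0.58, SE 0.13, adjusted p = 0.0254). In the interaction test with edgeR none of the genes of these 3 lists passed. At an unadjusted p under 0.05 there were 2 of the other family genes, 2 of the apoptosis genes and 5 of the regulators, beside 8.92% of all genes. Of all these DESeq2 called 1 regulator, beside 2.78% of the genes it tested, and limma-voom none.

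Among 11960 genes with a mean of at least 1 CPM, the profile most like that of Bcl2l11 over the 12 libraries was that of Src (Pearson r = 0.999 of log2 CPM). The closest to Bid was Trim33 (0.970), to Bcl2l1 Ebi3 (0.981), to Bcl2a1b Sms (0.984), to Bcl2a1d Ppm1b (0.999), to Mcl1 Ip6k1 (0.998), to Bcl2 Mfsd4b4 (0.996), to Bax Snrpb2 (0.980), to Pmaip1 Orai1 (0.953) and to Bak1 Col4a5 (0.901). The libraries fall into 2 states, which all these pairs share, so the values are descriptions. Between members, Bcl2l11 was at 0.982 with Bcl2a1d, 0.978 with Mcl1 and -0.983 with Bcl2, while Bcl2a1b was at 0.961 with Bcl2l1.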

How the data were processed

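RNA-seq was performed on 12 libraries, placed in groups from the labels' titles and treatments. Per the labels and methods, the authors removed adapters with Trimmomatic 0.33, ran HISAT2 against GRCm38 and estimated gene levels with StringTie. They deposited whole-number counts per gene in 1 table per state. The annotation, the step that gave whole counts and its use of strand are not given in the sources used here. The same tables hold 12 columns of log2 values per library and the authors' fold changes and p-values, which were not used. All genes listed have at least 4 counts in at least 5 libraries of their table, and 59 and 57 repeated entries were removed.

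Tests used edgeR 4.0.16 in R 4.3.3 (quasi-likelihood, two-sided, TMM scaling, filterByExpr, Benjamini-Hochberg adjustment over all genes, threshold 0.05), after the code was tested on simulated data. Genotypes were compared within a state, states within a genotype, and the interaction over 12 libraries. CPM used TMM scaling over 12 libraries, and RPKM the merged exon length. Alternatives were DESeq2 1.42.0, limma-voom 3.58.1, other scalings and filters, a replicate block, 1 fit of all libraries, and each library left out. Libraries of a group differed by more than sampling noise (chi-square per degree of freedom 34.1 to 287). Deviations from group means of same-numbered lines correlated between states at r = 0.139 to 0.454 (different numbers, -0.344 to 0.0976). This pairing across states was inferred from the data and is not stated in the labels. Across genotypes, r was -0.412 to 0.745 for the same number and -0.862 to 0.676 for different numbers, so the numbers were not seen to pair the genotypes. Without stimulation, r between genotypes was positive only for libraries alike in their share of antisense counts. The members, the gene lists and the region of chromosome 2 were chosen with earlier results of these data known. All members are named, and of each list up to 4 called genes with the smallest p per comparison. Some genes that this rule would name are not reported here. No sequence is given for Pmaip1.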

Additional observations from a re-analysis of the deposited data

Results flagged for a closer look

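The response to LPS differed between genotypes for 2 members in the fit with the replicate number within a genotype as a block, a pairing of the states inferred from the data. For Bcl2l11 the difference of log2 responses, KO minus WT, was 0.65 (SE 0.10, adjusted p = 0.0174). For Bid it was -0.56 (SE 0.10, adjusted p = 0.0326). In the edgeR fit without the block neither passed the threshold (adjusted p = 0.0948 and 0.110), while DESeq2 without a block called both (adjusted p = 0.000603 and 0.00510).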

How the results depend on the processing

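The count of members called between genotypes without stimulation was 0, and it became 2 with DESeq2 and 1 with 10 counts in every library, with all 12 libraries in 1 fit and with a term for the 3 libraries with more antisense counts, an alternative chosen after seeing the data. With 1 library left out it was 0 to 3, against 3 to 6 for the 5 members after LPS, 7 to 8 for the 8 of the LPS response in WT, 7 to 9 for the 9 in KO and 0 for the interaction. The interaction gave 2 with DESeq2 and 2 with the replicate block. For Bcl2a1d after LPS, the block, whose numbers do not pair the genotypes, gave 0.61 (adjusted p = 0.0448). The block changed no other call of a member. Bak1 fell after LPS in KO with upper-quartile scaling (-0.19, adjusted p = 0.00552), as did Bax in WT (-0.27, adjusted p = 0.0207). No called member changed sign under any alternative tried. Over 860 member values under the alternatives, 822 kept their side of the threshold, 18 passed it and 20 lost it. The cause of these changes was not tested.

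Over all genes, the 314 calls between genotypes without stimulation became 1721 with DESeq2 and 1353 with 12 libraries in 1 fit. They became 475 with 10 counts in every library and 151 with the block. With the term for the 3 libraries there were 664, and with 1 library left out 7 to 522. The 2481 calls after LPS became 867 to 2245 with 1 library left out. The 31 interaction calls became 334 with DESeq2, 288 with the block, 11 with limma-voom, 69 with the term and 2 to 41 with 1 left out. Mcl1 after LPS, with genotypes that did not overlap and an unadjusted p of 0.0463, missed the threshold once adjusted over all genes.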
